A study of Mus musculus with 9 samples.

Results

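This account covers the genes of the TGF-beta, activin and BMP signalling pathways in 3 cell populations of the fetal mouse testis. The members are 55 genes given by symbol: ligands, receptors, extracellular antagonists, Smads and Id genes. All 55 have an identifier among the 38560 genes of the count table, and 50 of them passed the filter on low counts, which left 18048 genes in all. The related genes Amh, Amhr2, Fst and Bmp2 are not members and are described only briefly. By its title, the study purified fetal Leydig cells to look for candidate genes of disorders of sex development.

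RNA was sequenced from populations sorted by flow cytometry out of gonads at 12.5 days post coitum (dpc), all from mice of the Sf1-eGFP strain. In these mice a green fluorescent reporter is driven by sequences of Sf1 (Nr5a1), a gene active in the somatic cells of the gonad. Gonads were taken as testes when they had cords, and the labels name no other allele or treatment for any group. The populations are named Sertoli, Leydig and Interstitial, with replicates A, B and C each, so that there are 9 libraries. How the gates were set is not given in the sources used here. Cells carrying CD31, a surface protein of germ cells and endothelium, were removed before sequencing. Each sample pooled cells from many sorting experiments on different days. Since the protocol describes 1 of the samples as A and B mixed, replicate C was taken by elimination to be that mixture. It is shown throughout and enters the ranges and statements on overlap, but it is counted in no n or mean, nor in the main fit. Only the alternative fit with all 9 libraries includes it. Adjusted p-values of that fit treat a mixture as an independent sample and are too small to that extent. With 2 pools per population, each from many litters, a p-value here weighs a difference against pool-to-pool spread only, not against animals.

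TGF-beta superfamily ligands are secreted dimers that bind pairs of type I and type II receptor kinases. Activated receptors phosphorylate receptor Smads, which enter the nucleus with the common Smad4. TGF-betas, activins and nodal act mainly through Smad2 and Smad3, and BMPs through Smad1, Smad5 and Smad9, with the Id genes among the best known BMP targets. In the gonad, inhibins and activins are built from shared subunits. An alpha subunit (Inha) with a beta subunit makes an inhibin, and a pair of beta subunits (Inhba, Inhbb) makes an activin.

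Between 33.12 and 39.24 M reads per library fell in genes. Levels are given as CPM, the reads of a gene per M reads in genes after TMM scaling, and differences as log2 values with their standard error (SE). Differences were called with edgeR's quasi-likelihood test at a Benjamini-Hochberg adjusted p of 0.05 over all 18048 genes. Known markers were checked in each population. The summed level of 11 Sertoli markers was 4032 to 4275 CPM in Sertoli, 1331 to 1393 in Leydig and 287 to 327 in Interstitial. That of 6 fetal Leydig markers was 236 to 447 CPM in Leydig, 250 to 300 in Sertoli and 42.2 to 65.8 in Interstitial, and 0 of the 6 were called between Leydig and Sertoli by edgeR or by DESeq2, with 0 at an unadjusted p under 0.05. The steroid markers were thus not called apart between the Leydig and Sertoli sorts, and population names below are those of the labels. Interstitial progenitor markers (7 genes) summed to 1410 to 1576 CPM in Leydig, 401 to 427 in Sertoli and 1064 to 1112 in Interstitial.

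Leydig replicate B stood apart from Leydig replicate A. Its 8 germ cell markers summed to 219 CPM against 53.3, its 7 erythroid markers to 246 against 72.7, and its 6 fetal Leydig markers to 236 against 447. Reads outside genes made up 38.52% of that library, the highest share of the 9, and 32.32% of Leydig replicate A. Results that rest on it are given with and without it. None of the markers in the 10 lists used here was at 0 in all libraries. In bulk RNA, fewer cells of a type and less RNA per cell cannot be told apart, and this holds for every level below.

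Promoters are shown here for a few members that stand for the main patterns described below. Of the 55 members, 38 had an entry in the RefSeq promoter table (GRCm38.p6), and for 25 the 250 bases before the start lay clear of annotated exons. The sequences run 5′ to 3′ on the gene's strand and end just before the start of transcription. Capitals mark a match to 1 of 4 motifs searched on both strands: CAGAC, the core bound by Smads, GGCGCC, a GC-rich sequence bound by Smads of the BMP branch, AGGTCA, the half-site of nuclear receptors such as SF1, and TATAAA, the TATA box.
Inhbb (highest in Sertoli, chr1:119422249-119422498, minus strand): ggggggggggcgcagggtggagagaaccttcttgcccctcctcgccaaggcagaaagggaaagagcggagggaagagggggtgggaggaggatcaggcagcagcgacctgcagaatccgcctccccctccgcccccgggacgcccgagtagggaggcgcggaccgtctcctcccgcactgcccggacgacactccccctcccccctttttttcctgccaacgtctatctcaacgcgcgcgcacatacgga
Inhba (highest in Leydig, chr13:16011601-16011850, plus strand): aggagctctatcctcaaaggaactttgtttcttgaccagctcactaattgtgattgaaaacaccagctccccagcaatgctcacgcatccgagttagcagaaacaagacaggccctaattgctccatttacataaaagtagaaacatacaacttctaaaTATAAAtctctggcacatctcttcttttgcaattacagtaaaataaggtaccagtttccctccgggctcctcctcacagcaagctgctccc
Gdf10 (highest in Interstitial, chr14:33923337-33923586, plus strand): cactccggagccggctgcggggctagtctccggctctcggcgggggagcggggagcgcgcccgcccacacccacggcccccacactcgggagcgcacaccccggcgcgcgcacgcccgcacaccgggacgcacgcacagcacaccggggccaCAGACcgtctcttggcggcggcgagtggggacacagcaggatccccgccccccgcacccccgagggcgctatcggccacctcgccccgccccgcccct
Tgfbr2 (lower in Sertoli than in both others, chr9:116175364-116175613, minus strand): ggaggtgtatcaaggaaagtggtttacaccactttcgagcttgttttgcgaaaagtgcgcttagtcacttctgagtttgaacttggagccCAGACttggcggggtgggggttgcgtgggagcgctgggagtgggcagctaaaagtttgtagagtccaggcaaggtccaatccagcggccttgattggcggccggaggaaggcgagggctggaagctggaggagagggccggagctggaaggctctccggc
Id4 (lower in Sertoli than in both others, chr13:48260866-48261115, plus strand): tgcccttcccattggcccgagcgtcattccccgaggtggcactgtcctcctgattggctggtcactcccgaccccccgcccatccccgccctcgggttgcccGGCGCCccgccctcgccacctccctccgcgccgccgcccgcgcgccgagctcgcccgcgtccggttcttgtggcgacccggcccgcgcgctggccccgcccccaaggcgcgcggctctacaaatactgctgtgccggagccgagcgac
Inhba held TATAAA from 91 bases before the start. CAGAC began 98 bases before the start in Gdf10 and 160 in Tgfbr2, and GGCGCC began 148 before it in Id4. The Inhbb window held none of the 4 motifs. Over 15680 promoters of the same length, CAGAC occurred in 42.6%, GGCGCC in 6.51%, AGGTCA in 15.3% and TATAAA in 14.8%. Of the 25 member promoters, 9 held CAGAC (36%), 5 GGCGCC (20%), 2 AGGTCA (8%) and 5 TATAAA (20%). The members with GGCGCC were Id4, Smad9, Tgfbr1, Chrd and Grem1. No motif contains another, and a match is only a description of the sequence.

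Most tested members differed between at least 1 pair of populations: 45 of 50 (90%), against 70.3% of all genes tested. The comparison of Leydig with Sertoli sets the sort named for the steroid-making cells against that named for the cells of the cords. There 30 members were called (60%, against 37.5% of all genes), 22 higher in Leydig (44%, against 16.9%) and 8 higher in Sertoli (16%, against 20.6%). That of Leydig with Interstitial sets it against the other sort named for the tissue between the cords, and gave 30 calls (60%, against 45.1%), 16 higher in Leydig (32%, against 22%) and 14 higher in Interstitial (28%, against 23.2%). Interstitial against Sertoli gave 37 calls (74%, against 61.8%), 23 higher in Interstitial (46%, against 32.7%) and 14 higher in Sertoli (28%, against 29.1%). At least 2-fold differences were called for 11 members higher in Leydig than in Sertoli (22%, against 7.18%) and 5 higher in Sertoli (10%, against 6.54%). Against Interstitial, 5 were at least 2-fold higher in Leydig (10%, against 5.7%) and 9 in Interstitial (18%, against 9.56%). Between Interstitial and Sertoli, 16 were at least 2-fold higher in Interstitial (32%, against 16%) and 6 in Sertoli (12%, against 11.9%). The median log2 difference over the members was 0.28, 0.12 and 0.27 in these 3 comparisons, and over all genes -0.01, 0.01 and 0.04. Members were also more highly expressed than the average gene, with a median of 21.2 CPM against 14.2 for all genes tested. With scaling by library size alone, the share of all calls on the Leydig side against Sertoli moved from 45.1 to 58.8%, on the Leydig side against Interstitial from 48.7 to 40.2%, and on the Interstitial side against Sertoli from 52.9 to 65.2%. That scaling shifted the median of all genes by 0.102 in Leydig against Sertoli and by 0.168 in Interstitial against Sertoli.

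The members fell into a few patterns of order. In Interstitial, 12 members were called higher than in both other populations (24%, against 19.7% of all genes). Of these, 8 were at least 2-fold higher (16%, against 8.42%): Nodal, Gdf3, Gdf6, Gdf10, Bmp3, Lefty1, Lefty2 and Bmpr1b. Sertoli was highest for 7 (14%, against 17.6%), of which Inha, Inhbb, Gdf15 and Bmp8a were at least 2-fold higher than in both others (8%, against 5.71%). Leydig was highest for 7 (14%, against 3.72%): Inhba, Bmp5, Tgfb1, Acvr1c, Tgfbr3, Smad3 and Smad5. Of these only Inhba was at least 2-fold higher than in both others (2%, against 0.31%). Acvr1c joined it with RLE size factors, with the filter at 1 CPM and with DESeq2, and neither reached that mark with library size scaling. Another 10 members were lower in Sertoli than in both others, which were not called apart (20%, against 7.4%): Tgfb2, Tgfbr2, Acvr1, Chrd, Smad1, Smad6 and the Id genes Id1, Id2, Id3 and Id4. Gdf11, Bmpr2 and Tgfbr1 were likewise lower in Interstitial alone (6%, against 6.57%), and Nog in Leydig alone (2%, against 1.57%). The Leydig mean lay between the other means for 30 of 50 members (60%, against 57.9%).

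**Figure D1:**
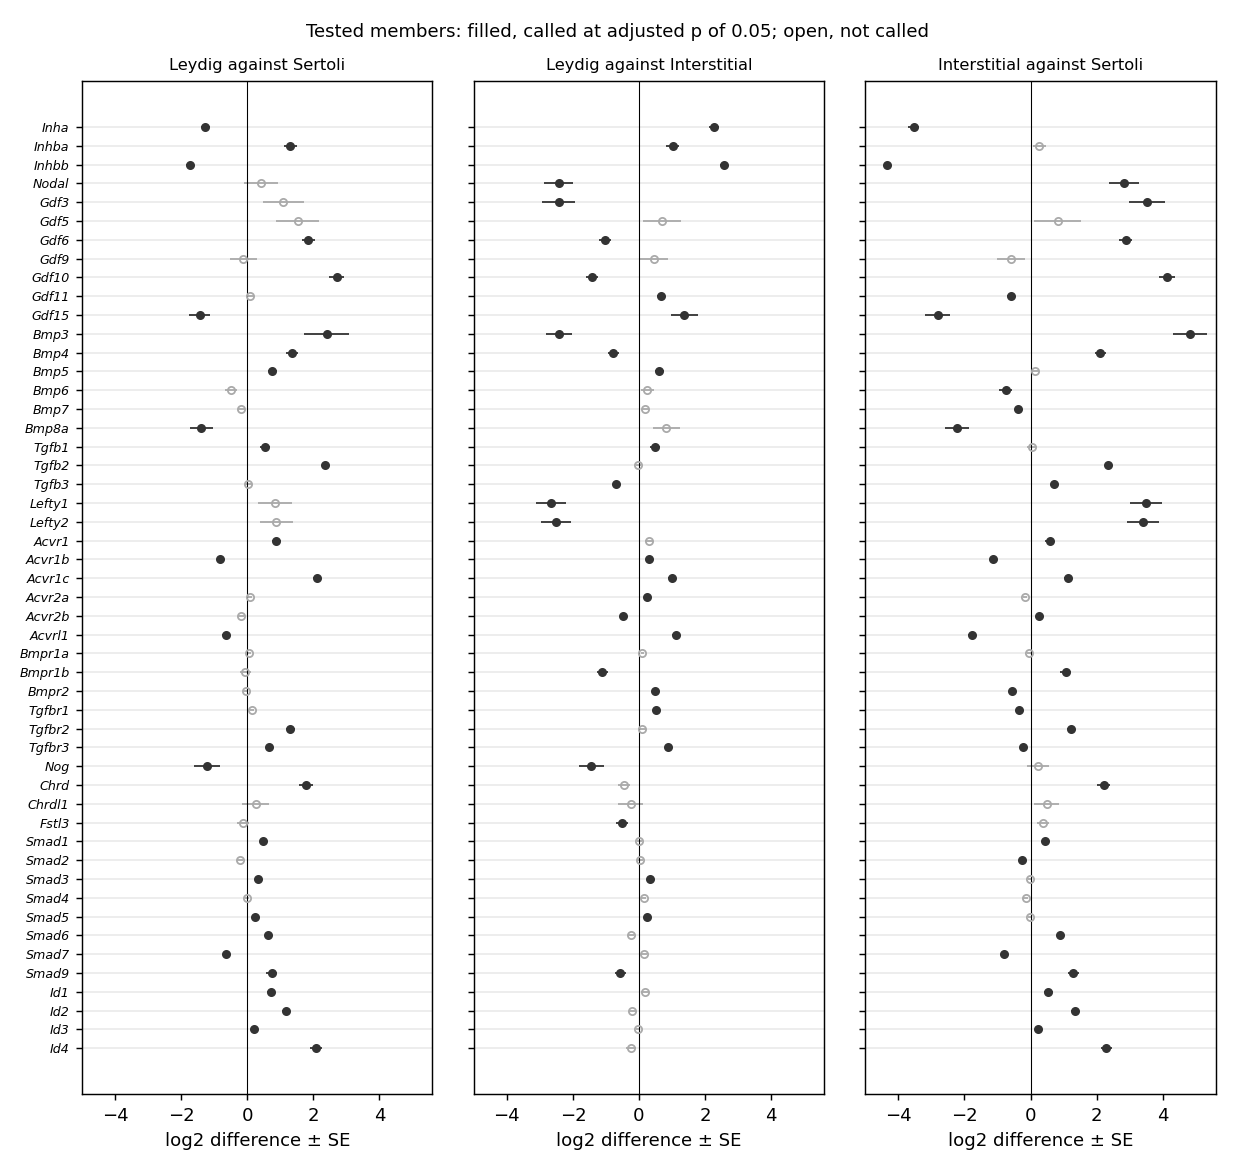
Log2 difference with its SE for each of the 50 tested members in the 3 comparisons (x axis, first population minus second), filled where called at an adjusted p of 0.05. Inhbb lies furthest to the Sertoli side (-4.33 in Interstitial against Sertoli), and Bmp3 and Gdf10 furthest to the Interstitial side (4.83 and 4.13).

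The inhibin and activin subunits were split between populations. Inha and Inhbb were highest in Sertoli, lower in Leydig and lowest in Interstitial, and Inhba was highest in Leydig. Inhbb (ENSMUSG00000037035, chromosome 1, 119415465 to 119422248, GRCm38), whose promoter is the first shown above, stood at 129, 132 and 136 CPM in Leydig replicates A, B and C. In Sertoli it stood at 408, 444 and 401 CPM, and in Interstitial at 19.2, 25.1 and 19.6. The ranges of the populations did not overlap. Sertoli was 3.36-fold above Leydig (log2 difference of Leydig against Sertoli -1.75 ± 0.11, SE; edgeR adjusted p 6.38e-06) and 20.1-fold above Interstitial (-4.33 ± 0.12 for Interstitial against Sertoli, edgeR adjusted p 2.53e-08). Leydig was 5.97-fold above Interstitial (2.58 ± 0.12, edgeR adjusted p 1.79e-06). Inha (ENSMUSG00000032968, chromosome 1, 75507077 to 75510366, GRCm38), the alpha subunit gene that makes the dimer an inhibin, followed the same order. Its levels were 59.9, 43.3 and 56.8 CPM in Leydig, 116, 126 and 115 in Sertoli, and 11.6, 10.0 and 9.49 in Interstitial. The populations did not overlap, with differences of -1.27 ± 0.14 for Leydig against Sertoli (edgeR adjusted p 0.000129), 2.26 ± 0.15 for Leydig against Interstitial (1.49e-05) and -3.54 ± 0.16 for Interstitial against Sertoli (2.55e-07). Per kilobase of exon, where levels of different genes can be compared, Sertoli held 100.0 CPM per kb of Inhbb and 82.1 of Inha.

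Inhba (ENSMUSG00000041324, chromosome 13, 16011851 to 16031621, GRCm38), the other activin beta subunit, was far lower than Inhbb in every population. Per kilobase it stood at 1.57 CPM in Leydig, 0.621 in Sertoli and 0.778 in Interstitial. Its 3 Leydig libraries were at 11.2, 8.87 and 11.0 CPM, the Sertoli libraries at 3.98, 3.96 and 4.71, and the Interstitial libraries at 5.79, 4.16 and 5.03. All Leydig libraries lay above all others, while Sertoli and Interstitial overlapped. Leydig was 2.46-fold above Sertoli (1.30 ± 0.19, edgeR adjusted p 0.00086) and 2.03-fold above Interstitial (1.02 ± 0.19, edgeR adjusted p 0.00268), and both calls held under all 13 alternatives. The difference to Interstitial fell just below 2-fold with library size scaling (0.96) and lay between 0.79 and 1.28 when single libraries were left out, at 0.79 without Interstitial replicate B and 0.85 without Leydig replicate A.

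Sertoli markers moved with Inha and Inhbb across the populations. All 11 were called higher in Sertoli than in Leydig, and 10 of 11 higher in Leydig than in Interstitial. Per 100 CPM of the summed Sertoli markers, Inhbb stood at 9.23 to 9.95 CPM in Leydig, 9.67 to 10.4 in Sertoli and 6.53 to 7.67 in Interstitial. The highest ratio was 1.59 times the lowest, while the level of Inhbb itself spanned 23.2-fold over the 9 libraries. The same ratio for Inha ranged from 2.76 to 4.30. The ratio was not taken for Gdf15, Bmp8a and Smad7, which were also called highest in Sertoli. For Acvrl1 and Acvr1b, likewise highest there, it did not stay level. It ranged from 0.758 to 3.95 for Acvrl1 (5.21 times, against 3.74-fold for its level). For Acvr1b it ranged from 1.57 to 11.2 (7.12 times, against 2.23-fold). The part of Sertoli RNA in the Leydig and Interstitial levels was not tested. For Inhba the pattern of the 6 fetal Leydig markers was different, since they were called higher in Leydig than in Interstitial (6 of 6) but not than in Sertoli (0 of 6). Inhba per 100 CPM of those markers ranged from 1.33 to 9.86, and per 100 CPM of the interstitial progenitor markers from 0.391 to 1.14.

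**Figure D2:**
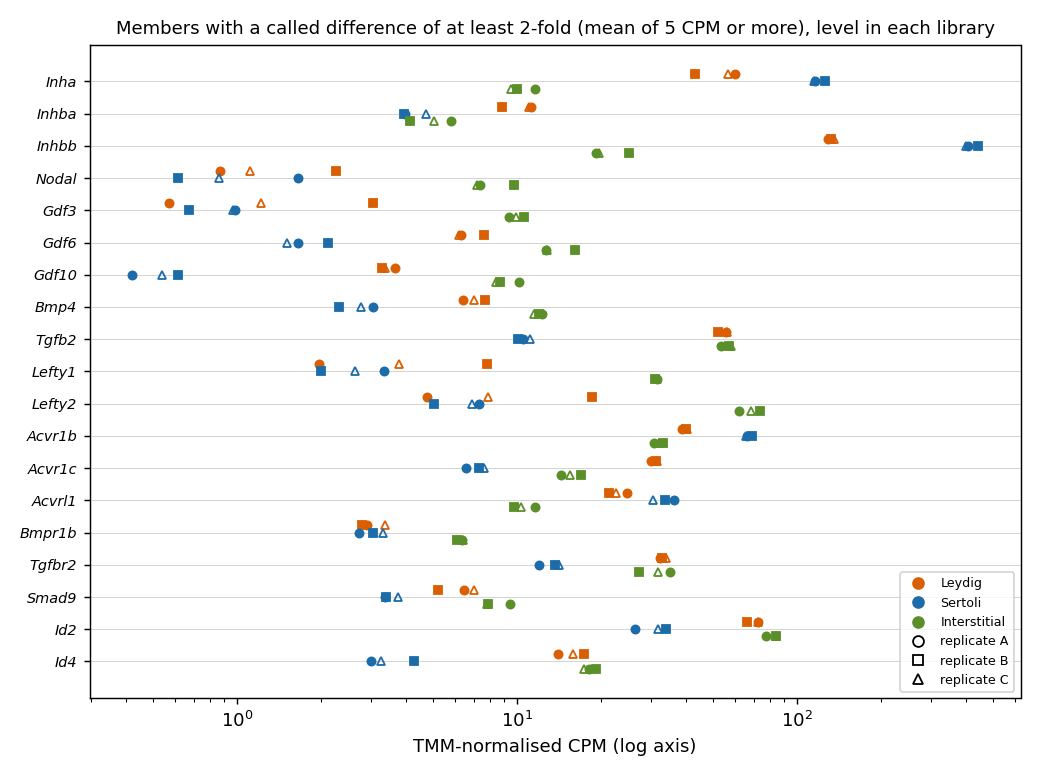
Level of the 19 members with a called difference of at least 2-fold and a mean of at least 5 CPM in the highest population, in each library (x axis, TMM-normalised CPM, log axis; filled symbols, replicates A and B; open triangles, replicate C). Inha and Inhbb are highest in Sertoli, the Lefty genes, Nodal and Gdf3 in Interstitial with Leydig replicate B next, and Tgfb2, Tgfbr2, Id2 and Id4 are low in Sertoli only.

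Nodal and its relatives were found mainly in the Interstitial libraries. Nodal is a ligand of the embryonic axis that acts with activin receptors, Gdf3 is a nodal-like ligand, and Lefty1 and Lefty2 are secreted antagonists of nodal. Lefty2 (ENSMUSG00000066652, chromosome 1, 180893108 to 180899103, GRCm38) was the highest of the 4 per kilobase, at 26.0 CPM per kb in Interstitial against 17.9 for Lefty1, 4.11 for Gdf3 and 4.08 for Nodal. Lefty2 was at 61.9, 73.8 and 68.7 CPM in Interstitial replicates A, B and C. In Leydig it was at 4.78, 18.5 and 7.85 CPM, and in Sertoli at 7.29, 5.04 and 6.90. Leydig replicate B lay well above the other non-Interstitial libraries, and all Interstitial libraries lay above it. Lefty1 (ENSMUSG00000038793, chromosome 1, 180935022 to 180938400), which lies next to Lefty2 and is similar to it in sequence, gave 31.7, 31.2 and 31.7 CPM in Interstitial, 1.96, 7.78 and 3.79 in Leydig, and 3.34, 1.99 and 2.64 in Sertoli. Reads shared by the 2 similar genes may have been split between them or lost.

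Gdf3 was at 9.35, 10.6 and 9.94 CPM in Interstitial, 0.571, 3.05 and 1.22 in Leydig, and 0.982, 0.675 and 0.970 in Sertoli. Nodal was at 7.40, 9.72 and 7.20 CPM in Interstitial, 0.872, 2.25 and 1.11 in Leydig, and 1.65, 0.616 and 0.862 in Sertoli. For both genes every Interstitial library exceeded every other library, with Leydig replicate B again next. Against Sertoli, Interstitial was higher by 3.40 ± 0.48 for Lefty2 (log2, SE; edgeR adjusted p 0.00032), 3.50 ± 0.48 for Lefty1 (0.000255), 3.52 ± 0.55 for Gdf3 (0.00058) and 2.84 ± 0.45 for Nodal (0.000621). Without Sertoli replicate A the Nodal difference was 3.73. Leydig against Interstitial gave -2.52 ± 0.45 for Lefty2 (edgeR adjusted p 0.00233), -2.67 ± 0.45 for Lefty1 (0.00162), -2.43 ± 0.50 for Gdf3 (0.00448) and -2.43 ± 0.44 for Nodal (0.00229). The size of these last differences rested on which Leydig replicate was used. Without Leydig replicate B they were -3.82, -4.00, -4.11 and -3.28, and without Leydig replicate A -1.85, -2.00, -1.69 and -1.91, all called.

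Between Leydig and Sertoli none of the 4 was called, and the libraries of these populations overlapped. The log2 differences were 0.88 for Lefty2 (edgeR adjusted p 0.207), 0.83 for Lefty1 (0.253), 1.09 for Gdf3 (0.211) and 0.41 for Nodal (0.574). They turned to -0.37, -0.45, -0.53 and -0.39 without Leydig replicate B, none of them called (edgeR adjusted p 0.245, 0.265, 0.337 and 0.625). Without Leydig replicate A, Lefty2 (1.54), Lefty1 (1.5) and Gdf3 (1.83) were called higher in Leydig (edgeR adjusted p 7.33e-05, 0.000315 and 0.000366), as they were with no low-count filter (0.92, 0.87 and 1.14; edgeR adjusted p 0.000186, 0.00225 and 0.00371).

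Germ cell markers moved with these genes. The summed level of 8 germ cell markers was 801 to 911 CPM in Interstitial, 53.3 to 219 in Leydig and 60.1 to 92.4 in Sertoli, although CD31-bearing cells had been removed. All 7 of the 8 that were tested were called higher in Interstitial than in each other population. Per 100 CPM of these markers, Lefty2 stood at 7.56 to 8.97 CPM over the 9 libraries, so that its highest ratio was 1.19 times its lowest while its own level spanned 15.4-fold. For Lefty1 the ratio ranged from 3.05 to 3.95 (1.30 times, against 16.2-fold for its level) and for Gdf3 from 1.06 to 1.40 (1.31 times, against 18.5-fold). The Nodal ratio was looser, from 0.792 to 1.79 (2.26 times, against 15.8-fold), at 21 to 334 reads per library. These ratios are descriptions over libraries that share pools, and the part of germ cell RNA in the 4 genes was not tested beyond them. Macrophage markers (49.6 to 77.8 CPM in Interstitial, 12.5 to 22.2 in Leydig, 1.26 to 1.88 in Sertoli) and erythroid markers (8505 to 9373, 72.7 to 246 and 85.8 to 210 CPM) were also highest in Interstitial.

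**Figure D3:**
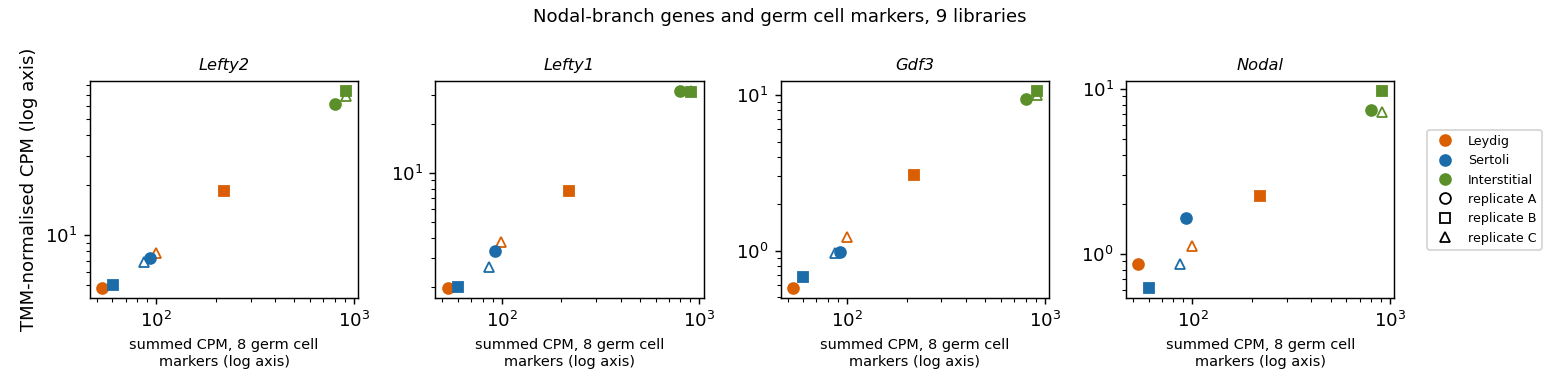
Level of Lefty2, Lefty1, Gdf3 and Nodal (y axis, TMM-normalised CPM, log axis) against the summed level of 8 germ cell markers (x axis, CPM, log axis) in each of the 9 libraries. Interstitial libraries lie at 801 to 911 CPM of markers, Leydig replicate B at 219 CPM, and the others at 53.3 to 99.6 CPM, in the same order as Lefty2.

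Other growth and differentiation factors were also highest in Interstitial. Gdf10 (ENSMUSG00000021943, chromosome 14, 33923587 to 33937983, GRCm38), a BMP3-like ligand, was at 10.2, 8.70 and 8.44 CPM there. It fell to 3.67, 3.28 and 3.38 CPM in Leydig and 0.421, 0.616 and 0.539 in Sertoli. The 3 populations were clear of one another, with Interstitial 17.5-fold above Sertoli (4.13 ± 0.23, edgeR adjusted p 1.02e-06) and 2.69-fold above Leydig (edgeR adjusted p 0.000377), and Leydig 6.50-fold above Sertoli (2.70 ± 0.24, edgeR adjusted p 4.27e-05). Gdf6, a ligand of joint and skeletal development, showed the same order. It was at 12.7, 16.1 and 12.8 CPM in Interstitial, 6.29, 7.61 and 6.20 in Leydig, and 1.65, 2.11 and 1.51 in Sertoli. Interstitial exceeded Sertoli by 2.88 ± 0.20 (edgeR adjusted p 3.63e-06), Leydig exceeded Sertoli by 1.84 ± 0.20 (0.000134), and Leydig against Interstitial was at -1.03 ± 0.17 (0.00152). Bmp4 (ENSMUSG00000021835, chromosome 14, 46383520 to 46390669, GRCm38), a BMP with wide roles in the embryo, again had no overlap between populations. Its levels were 12.3, 12 and 11.5 CPM in Interstitial, 6.41, 7.69 and 7.04 in Leydig, and 3.06, 2.32 and 2.78 in Sertoli, or 12.1 ± 0.238, 7.05 ± 0.909 and 2.69 ± 0.523 CPM (SD, n = 2 pools). The differences were 2.11 ± 0.17 (Interstitial against Sertoli, edgeR adjusted p 1.07e-05), 1.35 ± 0.17 (Leydig against Sertoli, 0.000373) and -0.77 ± 0.16 (Leydig against Interstitial, 0.00433). Beside these ligands, the summed endothelial markers were also highest in Interstitial (241 to 270 CPM, against 208 to 240 in Leydig and 42.6 to 45.4 in Sertoli). Singly they were mixed, as 4 of 8 were called higher in Leydig than in Interstitial and 2 higher in Interstitial. The sums for mesonephric tubules (101 to 118, 49.8 to 55.4 and 27.5 to 30.3 CPM), germ cells, macrophages and erythroid cells were also highest in Interstitial. The part of all these cells was not tested.

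The remaining GDF and BMP ligands were lower or less divided. Bmp5 was at 10.9 ± 1.33 CPM in Leydig, 6.25 ± 0.0862 in Sertoli and 7.14 ± 0.223 in Interstitial (SD, n = 2), and was called higher in Leydig than in both (0.76 and 0.62; edgeR adjusted p 0.00207 and 0.00496). Gdf11, a relative of myostatin, was at 20.4 ± 1.33 CPM in Interstitial, below Leydig (32.0 ± 2.35) and Sertoli (29.5 ± 3.73), which were not called apart. Bmp7 was at 25.9 to 32.2 CPM as population means, and only Interstitial against Sertoli was called (-0.37 ± 0.10, edgeR adjusted p 0.0101). That call was lost without Sertoli replicate B (-0.28, edgeR adjusted p 0.0811), without Interstitial replicate A (-0.23, 0.14) and with library size scaling (-0.20, 0.107). Bmp6 was at 4.13 ± 0.212 CPM in Sertoli and 2.55 ± 0.106 in Interstitial, a called difference (-0.75 ± 0.19, edgeR adjusted p 0.00865) that was lost without Interstitial replicate B (-0.65, edgeR adjusted p 0.0592).

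Some low ligands leaned to Sertoli. Gdf15, a stress-induced ligand, was at 2.02 ± 0.362 CPM in Sertoli, 0.763 ± 0.143 in Leydig and 0.303 ± 0.148 in Interstitial, and all 3 differences were called. The call of Leydig against Sertoli (-1.44) was lost without Sertoli replicate A (-1.24, edgeR adjusted p 0.0688), and that of Leydig against Interstitial (1.37) without Leydig replicate B (1.16, 0.104) or Interstitial replicate A (0.91, 0.147). Bmp8a was at 2.96 ± 0.377 CPM in Sertoli, 1.15 ± 0.201 in Leydig and 0.666 ± 0.416 in Interstitial, called higher in Sertoli than in both. Against Leydig (-1.40) its call was lost without Leydig replicate B (-1.19, edgeR adjusted p 0.0545) or Sertoli replicate B (-1.27, 0.0841), and Interstitial against Sertoli (-2.23) ranged from -1.62 without Interstitial replicate A to -2.98 without Interstitial replicate B. Bmp8a and Bmp8b are near-identical copies, so the split of reads between them is uncertain. Bmp3 averaged 1.36 ± 0.241 CPM in Interstitial, against 0.249 ± 0.0965 in Leydig (-2.42 ± 0.38, edgeR adjusted p 0.00113), while Sertoli libraries held 1, 2 and 4 reads. Its call of Leydig against Sertoli (2.40 ± 0.69, edgeR adjusted p 0.0249) was lost without Leydig replicate B (1.99, edgeR adjusted p 0.139), without Sertoli replicate A (1.99, 0.14) or Sertoli replicate B (2.97, 0.0685), and with DESeq2 (2.48, DESeq2 adjusted p 0.0661). Gdf5 (up to 0.632 CPM) and Gdf9 (up to 0.469 CPM) were not called in any comparison. With no low-count filter Gdf5 was called higher in Leydig than in Sertoli (1.57, edgeR adjusted p 0.0359), in the fit with the far smaller p-values described above.

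The 5 members left out by the filter were Gdf7, Mstn, Bmp8b, Bmp15 and Grem1. The highest level in any library was 0.173 CPM for Gdf7 (7 reads), 0.566 for Bmp8b (21 reads), 0.322 for Bmp15 (13 reads) and 0.204 for Grem1 (7 reads). Mstn, which encodes myostatin, had 1 read in 1 library and 0 in the others. With 0 counted, as many as 3 reads (0.0764 to 0.0906 CPM) cannot be told from none, counting error alone being considered.

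The 3 TGF-beta ligand genes each had a pattern of their own. Tgfb2 (ENSMUSG00000039239, chromosome 1, 186622792 to 186705989, GRCm38) was at 56.0, 52.1 and 56.4 CPM in Leydig and 53.4, 57.0 and 58.0 in Interstitial, but at 10.5, 10.1 and 11.1 in Sertoli. The Leydig and Interstitial ranges overlapped, and both lay far above Sertoli. Leydig was 5.09-fold (2.35 ± 0.08, edgeR adjusted p 1.21e-06) and Interstitial 5.14-fold above Sertoli (2.36 ± 0.08, edgeR adjusted p 7.39e-08). Leydig and Interstitial were not called apart (54.0 ± 2.77 and 55.2 ± 2.57 CPM, SD, n = 2; edgeR adjusted p 0.887). Tgfb3 was higher in Interstitial (26.5 ± 2.64 CPM) than in Leydig (16.4 ± 0.978; -0.68, edgeR adjusted p 0.000837) and Sertoli (15.6 ± 0.215; 0.71, edgeR adjusted p 0.000304). Tgfb1 was highest in Leydig at 7.64 ± 1.11 CPM, against 5.09 ± 0.303 in Sertoli and 5.46 ± 0.0573 in Interstitial (0.54 and 0.50; edgeR adjusted p 0.0225 and 0.0261). Those calls for Tgfb1 were lost when single libraries were left out. Without Leydig replicate A both were lost (0.39 and 0.35; edgeR adjusted p 0.124 and 0.157). The first was also lost without Sertoli replicate A (0.48, edgeR adjusted p 0.128) or B (0.60, 0.0698), and the other without Interstitial replicate A (0.48, 0.11) or B (0.49, 0.104). Summed markers of interstitial progenitors, endothelium and smooth muscle were, like Tgfb2, lower in Sertoli. The 7 smooth muscle markers summed to 276 to 301 CPM in Leydig, 221 to 230 in Interstitial and 165 to 194 in Sertoli. Singly, 4 of these 7 were called higher in Interstitial than in Sertoli and 2 higher in Sertoli. Tgfb2 per 100 CPM of interstitial progenitor markers ranged from 2.37 to 5.36, and the part of those cells was not tested.

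All 12 receptors and co-receptors were tested. In the BMP branch, Bmpr1a, the main type I receptor for BMPs, was at 210 ± 0.263 CPM in Leydig, 197 ± 1.01 in Sertoli and 198 ± 3.81 in Interstitial, not called in any comparison. Its relative Bmpr1b was much lower, at 1.05 CPM per kb in Interstitial against 31.2 for Bmpr1a. Bmpr1b was at 6.38, 6.11 and 6.40 CPM in Interstitial, 2.92, 2.79 and 3.38 in Leydig, and 2.72, 3.05 and 3.31 in Sertoli. Only the Interstitial libraries stood apart, 2.16-fold above Leydig (edgeR adjusted p 0.000756) and 2.08-fold above Sertoli (0.00045). The type II receptor Bmpr2 was lower in Interstitial (60.7 ± 3.49 CPM) than in Leydig (84.9 ± 5.35) and Sertoli (85.3 ± 8.01). Acvr1, a type I receptor used by BMPs and activins, was lower in Sertoli (19.9 ± 3.00 CPM) than in Leydig (37.5 ± 2.77) and Interstitial (30.9 ± 3.67).

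The activin type I receptors Acvr1b and Acvr1c differed in the place of Sertoli, which was highest for Acvr1b and lowest for Acvr1c. Acvr1c (ENSMUSG00000026834, chromosome 2, 58267453 to 58357895, GRCm38), which encodes ALK7, a receptor for nodal and activins, was at 30.0, 31.4 and 31.5 CPM in Leydig. In Interstitial it was at 14.4, 16.9 and 15.4 CPM and in Sertoli at 6.56, 7.33 and 7.65. The ranges did not overlap, and Leydig stood 4.29-fold above Sertoli (2.10 ± 0.11, edgeR adjusted p 3.5e-06) and 1.98-fold above Interstitial (0.99 ± 0.11, edgeR adjusted p 0.000174). Interstitial exceeded Sertoli by 1.12 ± 0.11 (edgeR adjusted p 4.43e-05). Acvr1c overlaps an antisense gene of the count table, and the strand setting of the counting is not given in the sources used here. The same holds for the exons of 12 members in all, Bmp4, Bmp5, Bmp6, Acvrl1, Bmpr1a, Chrd, Fstl3 and Id4 among them. Acvr1c per 100 CPM of the interstitial progenitor markers ranged from 1.33 to 2.22 over the 9 libraries, and per 100 CPM of the fetal Leydig markers from 2.19 to 40.1. The part of either cell type in its level was not tested otherwise.

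Acvr1b, which encodes ALK4, was at 66.2, 69.1 and 66.0 CPM in Sertoli, 38.8, 40.0 and 40.5 in Leydig, and 30.9, 33.1 and 32.1 in Interstitial. Sertoli lay above the other populations without overlap. Leydig against Sertoli was -0.82 ± 0.07 (edgeR adjusted p 3.35e-05) and Interstitial against Sertoli -1.14 ± 0.07 (2.12e-06). Leydig was called above Interstitial (0.31 ± 0.07, edgeR adjusted p 0.0072), a call lost without Interstitial replicate A (0.25, edgeR adjusted p 0.0627). Acvrl1, which encodes ALK1, known as a receptor of endothelium, was also highest in Sertoli. It was at 36.5, 33.7 and 30.6 CPM there, 24.8, 21.3 and 22.6 in Leydig, and 11.6, 9.78 and 10.3 in Interstitial. The 3 populations were separate, with Leydig against Sertoli at -0.65 ± 0.11 (edgeR adjusted p 0.00189), Leydig against Interstitial at 1.12 ± 0.12 (0.000154) and Interstitial against Sertoli at -1.77 ± 0.12 (3.06e-06). The 8 endothelial markers had the opposite order of sums, lowest in Sertoli at 42.6 to 45.4 CPM. Singly, 8 of 8 were called higher in Interstitial than in Sertoli. Between Leydig and Interstitial they were mixed, with 4 called higher in Leydig and 2 in Interstitial.

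Among the receptors for TGF-beta ligands, Tgfbr2 (ENSMUSG00000032440, chromosome 9, 116084293 to 116175360, GRCm38), the type II receptor, was lower in Sertoli. It was at 12, 13.7 and 14.1 CPM in Sertoli, 32.3, 32.9 and 34.0 in Leydig, and 35.2, 27.2 and 32.0 in Interstitial. Leydig and Interstitial overlapped and both exceeded every Sertoli library, by 1.30 ± 0.13 (edgeR adjusted p 8.16e-05) and 1.23 ± 0.13 (5.4e-05). The low Sertoli level of Tgfbr2 went with that of its ligand gene Tgfb2. Tgfbr1, the type I receptor, was lower in Interstitial (167 ± 4.06 CPM) than in Leydig (235 ± 0.408; 0.51, edgeR adjusted p 0.000643) and Sertoli (207 ± 18.6; -0.36, edgeR adjusted p 0.00193), the latter call being lost with library size scaling (-0.20, edgeR adjusted p 0.0509). The co-receptor gene Tgfbr3, which encodes betaglycan, a binder of TGF-beta and inhibin, was highest in Leydig at 135 ± 9.30 CPM, against 83.7 ± 5.14 in Sertoli and 73.5 ± 0.548 in Interstitial. Leydig exceeded them by 0.65 ± 0.07 and 0.89 ± 0.07 (edgeR adjusted p 0.000148 and 4.07e-05). Interstitial against Sertoli was also called for Tgfbr3 (-0.24, edgeR adjusted p 0.0166), but not without Sertoli replicate B (-0.19, 0.108), without Interstitial replicate A (-0.20, 0.129) or B (-0.18, 0.169), or with library size scaling (-0.08, 0.401).

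The activin type II receptors varied little. Acvr2a was at 57.2 ± 0.571 CPM in Leydig, 52.9 ± 1.79 in Sertoli and 49.3 ± 0.651 in Interstitial, and only Leydig against Interstitial was called (0.23, edgeR adjusted p 0.0186). This call was lost in each fit without 1 Leydig or Interstitial library (0.20 to 0.24, edgeR adjusted p 0.054 to 0.122) and with library size scaling (0.16, 0.0805). Acvr2b was highest in Interstitial at 21.8 ± 0.753 CPM, against 15.6 ± 0.234 in Leydig (-0.47, edgeR adjusted p 0.00331) and 17.4 ± 1.16 in Sertoli (0.27, edgeR adjusted p 0.0279). The latter was lost without Sertoli replicate A (0.20, edgeR adjusted p 0.16), without Interstitial replicate B (0.29, 0.0757) and with DESeq2 (0.25, DESeq2 adjusted p 0.08).

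Extracellular antagonists of BMPs and activins were low throughout. Chrd, which encodes chordin, a BMP trap, was at 1.04 ± 0.195 CPM in Sertoli, 3.65 ± 0.139 in Leydig and 4.98 ± 0.545 in Interstitial, and was called lower in Sertoli than in both (1.77 and 2.21; edgeR adjusted p 0.00025 and 2.86e-05). Nog, which encodes the BMP antagonist noggin, was at 0.366 ± 0.0929 CPM in Leydig, 0.832 ± 0.0263 in Sertoli and 1.02 ± 0.363 in Interstitial. Its lower level in Leydig was called against Sertoli (-1.21, edgeR adjusted p 0.0393) and Interstitial (-1.44, edgeR adjusted p 0.0145). The first call was lost without any 1 of the Leydig or Sertoli libraries (-0.98 without Leydig replicate A, -1.45 without Leydig replicate B, -1.24 and -1.18 without Sertoli replicates A and B), and the other without Leydig replicate A (-1.20) or Interstitial replicate B (-1.06). With all 9 libraries neither was called (-0.82 and -0.69; edgeR adjusted p 0.0907 and 0.141), and replicate C of Leydig (0.785 CPM) lay above that of Interstitial (0.473 CPM). Against Sertoli it was also lost with library size scaling (-1.11, edgeR adjusted p 0.0547) and with DESeq2 (-1.23, DESeq2 adjusted p 0.124). Fstl3, a follistatin-like activin binder, was at 2.73 ± 0.167, 2.90 ± 0.415 and 3.95 ± 0.131 CPM in Leydig, Sertoli and Interstitial, and its call of Leydig against Interstitial (-0.51, edgeR adjusted p 0.0478) was lost in 9 of 13 alternatives, leaving out any 1 of the 6 libraries among them (-0.59 to -0.45, edgeR adjusted p 0.0542 to 0.172). Chrdl1, a chordin-like BMP binder, was at 0.280 to 0.946 CPM and not called.

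The Smads were expressed in all libraries and differed by less than 2-fold, except Smad9. Smad9, a receptor Smad of the BMP branch, was at 9.45, 7.88 and 7.84 CPM in Interstitial, 6.44, 5.21 and 7.04 in Leydig, and 3.37, 3.40 and 3.77 in Sertoli. No libraries of different populations overlapped, and Interstitial was 2.46-fold above Sertoli (1.30 ± 0.17, edgeR adjusted p 0.000185). Leydig lay between, above Sertoli (0.74, edgeR adjusted p 0.00921) and below Interstitial (-0.56, 0.021). The former call was lost without Sertoli replicate A (0.73, edgeR adjusted p 0.0587) or B (0.75, 0.0536), and the latter without Leydig replicate B (-0.43, 0.0903) or Interstitial replicate A (-0.43, 0.133). Smad5 was the highest Smad per kilobase (43.8 CPM per kb in Leydig, 36.0 in Sertoli and 37.2 in Interstitial), and Smad1 stood at 4.33, 3.04 and 4.34. Smad1 was lower in Sertoli (0.47 for Leydig and 0.45 for Interstitial; edgeR adjusted p 0.00246 and 0.00147). Smad5 was slightly higher in Leydig than in Sertoli (0.24, edgeR adjusted p 0.01) and Interstitial (0.25, edgeR adjusted p 0.00699), calls lost without Sertoli replicate A (0.22, 0.0639) and without Interstitial replicate B (0.21, 0.0771) respectively. Interstitial against Sertoli was not called for Smad5 in the main fit (-0.01, edgeR adjusted p 0.872). Library size scaling turned the sign of this difference and gave a call (0.16, edgeR adjusted p 0.0492).

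Of the Smads of the TGF-beta and activin branch, Smad3 was higher in Leydig (118 ± 6.71 CPM) than in Sertoli (92.7 ± 0.701; 0.31, edgeR adjusted p 0.00449) and Interstitial (94.3 ± 1.21; 0.34, edgeR adjusted p 0.00254). Smad2 was at 74.6 to 85.2 CPM as population means, and its call of Interstitial against Sertoli (-0.25, edgeR adjusted p 0.0206) was lost without Sertoli replicate B (-0.20, 0.119), without Interstitial replicate A (-0.16, 0.213) or B (-0.22, 0.107), and with library size scaling (-0.08, 0.42). The common Smad4 was at 113 ± 0.052 CPM in Leydig, 111 ± 9.22 in Sertoli and 104 ± 3.32 in Interstitial, with no call. The inhibitory Smads, which are themselves induced by the pathway and damp it, went in opposite directions. Smad7, which blocks the TGF-beta and activin branch and BMP receptors, was at 108 ± 4.60 CPM in Sertoli, above Leydig (71.4 ± 0.423; -0.64, edgeR adjusted p 0.000947) and Interstitial (65.0 ± 10.1; -0.79, edgeR adjusted p 0.00014). Smad6, which acts mainly on the BMP branch, was at 18.2 ± 1.13 CPM in Sertoli, below Leydig (29.3 ± 2.53; 0.64, edgeR adjusted p 0.000805) and Interstitial (35.2 ± 1.51; 0.89, edgeR adjusted p 5.45e-05).

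The Id genes, which encode inhibitors of helix-loop-helix factors and are induced by BMPs, were all lower in Sertoli. All 4 were called below Leydig and below Interstitial, and 0 of 4 between Leydig and Interstitial by edgeR (adjusted p 0.296, 0.17, 0.778 and 0.267 for Id1, Id2, Id3 and Id4), with 0 at an unadjusted p under 0.05 and 0 by DESeq2. With all 9 libraries Id2 was called lower in Leydig than in Interstitial (-0.21, edgeR adjusted p 0.0265), and with the replicate letter as a block Id1 was called higher in Leydig (0.18, edgeR adjusted p 0.0406). The size differed between them. Id4 (ENSMUSG00000021379, chromosome 13, 48261228 to 48266026, GRCm38), whose promoter is shown above, was at 14.0, 17.4 and 15.9 CPM in Leydig, 18.0, 19.2 and 17.4 in Interstitial, and 3.00, 4.28 and 3.26 in Sertoli. The Sertoli libraries lay well below the rest, 4.20-fold under Leydig (2.07 ± 0.18, edgeR adjusted p 3.3e-05) and 4.91-fold under Interstitial (2.30 ± 0.18, edgeR adjusted p 7.43e-06). Id2 (ENSMUSG00000020644, chromosome 12, 25093799 to 25097140) was at 72.3, 66.4 and 72.7 CPM in Leydig, 77.2, 84.3 and 83.9 in Interstitial, and 26.3, 34.0 and 32.0 in Sertoli. Again the Sertoli libraries did not reach the others, with differences of 1.16 ± 0.12 (edgeR adjusted p 8.29e-05) and 1.36 ± 0.12 (1.44e-05). Id1 stood at 41.0 to 50.7 CPM in Leydig, 36.3 to 44.9 in Interstitial and 25.1 to 28.8 in Sertoli, with differences of 0.72 and 0.54 (edgeR adjusted p 0.00285 and 0.00699). The latter was lost without Sertoli replicate B (0.43, edgeR adjusted p 0.0711). Id3 was the highest of the 4 per kilobase, at 52.5 to 64.4 CPM per kb, and differed least (0.21 and 0.24; edgeR adjusted p 0.0315 and 0.0114). Its call against Leydig was lost without Leydig replicate A (0.16, edgeR adjusted p 0.172), Sertoli replicate A (0.20, 0.146) or Sertoli replicate B (0.23, 0.0954), and against Interstitial without Sertoli replicate A (0.22, 0.0714). Id2 and Id4 per 100 CPM of the interstitial progenitor markers ranged from 4.59 to 7.98 and from 0.749 to 1.80, and the part of those cells in the difference was not tested.

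**Figure D4:**
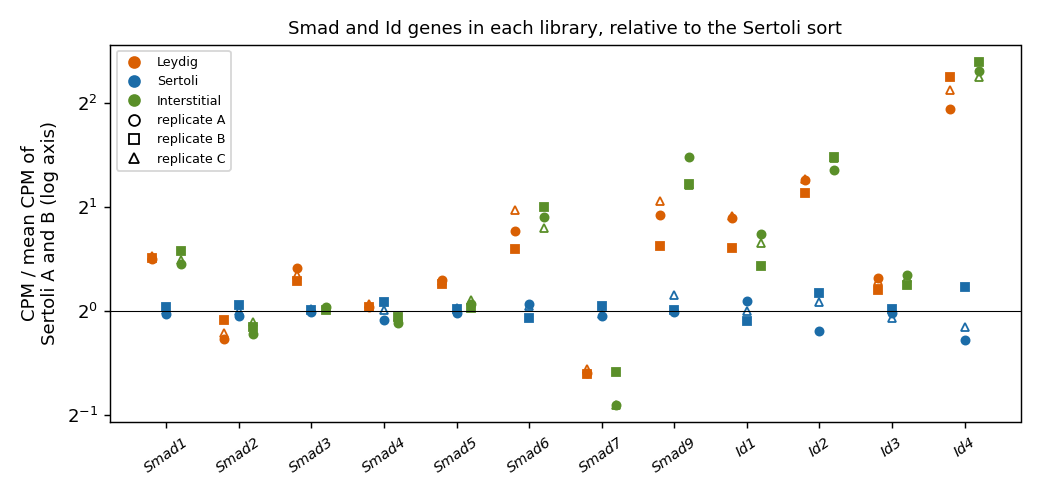
Level of the 8 Smad and 4 Id genes in each library, as CPM divided by the mean CPM of Sertoli replicates A and B (y axis, log axis; filled symbols, replicates A and B; open triangles, replicate C). Leydig and Interstitial libraries lie above 1 for the Id genes, most for Id4, and below 1 for Smad7.

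Of 70 other genes of the pathway that are not members, 69 had an identifier and 58 were tested. In Leydig against Sertoli, 39 of 58 were called (67.2%, against 37.5% of all genes), 19 higher in Leydig (32.8%, against 16.9%) and 20 higher in Sertoli (34.5%, against 20.6%). Leydig against Interstitial gave 26 calls (44.8%, against 45.1%), 18 higher in Leydig (31%, against 22%) and 8 higher in Interstitial (13.8%, against 23.2%). Interstitial against Sertoli gave 41 (70.7%, against 61.8%), 17 higher in Interstitial (29.3%, against 32.7%) and 24 higher in Sertoli (41.4%, against 29.1%). Amh, the gene of anti-Müllerian hormone, was at 460, 425 and 446 CPM in Leydig, 1548, 1638 and 1456 in Sertoli, and 54.4, 64.8 and 50.7 in Interstitial, and its receptor gene Amhr2 at 103, 95.4 and 100, at 225, 220 and 207, and at 42.2, 42.2 and 39.4. Both were called in all 3 comparisons, in the same order as Inha and Inhbb. The activin antagonist follistatin (Fst) was at 15.5, 6.28 and 11.8 CPM in Sertoli and 1.63 to 2.32 elsewhere, and Bmp2 was called highest in Leydig at 11.6 ± 0.456 CPM, against 7.83 ± 0.451 in Sertoli and 6.13 ± 0.134 in Interstitial (SD, n = 2). The Fst difference of Leydig against Sertoli (-2.43) was -1.63 without Sertoli replicate A, and that of Interstitial against Sertoli (-2.75) was -1.96. The Bmp2 call against Sertoli (0.52) was lost without Sertoli replicate A (0.47, edgeR adjusted p 0.0637).

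Of the 18 such genes that were called at least 2-fold apart with at least 5 CPM, those with the largest differences can be grouped by population. Highest in Sertoli, beside Amh, Amhr2 and Fst, were the follistatin-like gene Fstl4 (29.2 ± 1.55 CPM in Sertoli, 8.59 ± 1.09 in Leydig, 2.12 ± 0.117 in Interstitial) and Pcsk6 (255 ± 8.77, 135 ± 5.34 and 41.5 ± 4.22), whose protease cleaves nodal and lefty precursors. The target gene Ccn2 was also highest in Sertoli (139 ± 50.3, 67.8 ± 21.7 and 28.2 ± 8.60 CPM). Replicates A and B were at 103 and 174 CPM in Sertoli, 52.4 and 83.1 in Leydig, and 22.1 and 34.3 in Interstitial. Ccn2 was thus higher in replicate B in every population, which the main fit, having no block, counted as spread. Its call of Leydig against Sertoli (-1.07, edgeR adjusted p 0.0184) was lost without Leydig replicate A (-0.78, 0.0509), without Sertoli replicate B (-0.65, 0.164) and with DESeq2 (-1.08, DESeq2 adjusted p 0.0634), and that of Leydig against Interstitial (1.28) without Interstitial replicate A (0.99, edgeR adjusted p 0.0605). Highest in Interstitial were the nodal co-receptor gene Tdgf1 (7.71 ± 0.656 CPM, 1.32 ± 1.31 in Leydig and 0.938 ± 0.538 in Sertoli), Foxh1, a nuclear partner of Smad2 in nodal signalling (14.5 ± 2.51, 2.33 ± 1.80 and 1.28 ± 0.405), and Nrros (7.51 ± 0.122, 3.22 ± 0.901 and 0.886 ± 0.175), which tethers latent TGF-beta on macrophages. Without Leydig replicate B, the Leydig against Interstitial differences moved from -2.52 to -4.28 for Tdgf1 and from -2.62 to -3.78 for Foxh1, and without Leydig replicate A to -1.76 and -1.99. Without Sertoli replicate A, Tdgf1 in Interstitial against Sertoli moved from 2.97 to 3.72. Per 100 CPM of the germ cell markers, Tdgf1 ranged from 0.734 to 1.43 and Foxh1 from 1.30 to 2.21, while their levels spanned 20.9-fold and 16.4-fold. Lower in Sertoli than in both others were the endothelial TGF-beta co-receptor gene Eng (12.4 ± 0.605 CPM in Leydig, 2.96 ± 0.332 in Sertoli and 14.5 ± 2.47 in Interstitial) and the BMP antagonist gene Sostdc1 (11.0 ± 2.41, 1.47 ± 0.501 and 8.17 ± 1.39).

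The authors' deposited tables of their own comparisons list 14 members between Leydig and Sertoli, 12 between Leydig and Interstitial and 21 between Interstitial and Sertoli. Each of these had the same direction in the fit described here and was called by it. Of the members called here with at least a 2-fold difference, 14 of 16, 12 of 14 and 21 of 22 are in the authors' deposited tables. For Inhbb in Interstitial against Sertoli, the authors' deposited table gives a log2 difference of -4.29, beside -4.33 here.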

How the data were processed

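RNA was sequenced from 9 libraries of sorted cells with a stranded, ribosome-depleted kit, each over 4 lanes, per the labels' protocols. The authors deposited raw counts of reads, by gene, for every lane of every library. They were made with TopHat2 2.0.6, HTSeq and the mm10 genome, per the submitters' processing notes. Which annotation release and strand setting were used is not given in the sources used here. The authors' deposited tables of comparisons give log2 fold changes, p-values and adjusted p-values, and test scores (moderated t and log odds), per the file headers. Judged by their values, they are limited to genes past an adjusted p of 0.05 with at least a 2-fold difference. The model fitted is not given in the sources used here.

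Lanes were summed. Symbols, coordinates and merged exon lengths came from GENCODE M21 (GRCm38, also called mm10), which named 36722 identifiers, and the authors' tables named 34 more. Reads in genes numbered 33.12 to 39.24 M per library, so that 3 reads correspond to 0.0764 to 0.0906 CPM. Reads outside genes (32.23 to 38.52%) and ambiguous reads (0.62 to 0.77%) were left out. Replicates A and B of all populations were fitted together (6 libraries, 3 residual degrees of freedom) with edgeR 4.0.16 in R 4.3.3 (TMM, filterByExpr, glmQLFit and glmQLFTest), and adjusted p-values cover 18048 genes. The common biological coefficient of variation was 0.0871. Levels are means with SD over A and B. The fit was also run on simulated counts in which only a small set of genes was changed, in Leydig alone. In the data 37.5 to 61.8% of all genes were called, so that run does not measure the error rate here.

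Members called at least 2-fold apart with a mean of 5 CPM or more in the highest population are described by library, and of the other pathway genes that pass this, the 12 with the largest differences, of which 1 is not reported here. The members, lists and rules were chosen with earlier results of these data known. Alternatives were RLE size factors, library size scaling, no low-count filter, a filter at 1 CPM, all 9 libraries, the replicate letter as a block, DESeq2 1.42.0, and leaving out each library. Promoters came from RefSeq.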

Additional observations from a re-analysis of the deposited data

How the results depend on the processing

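Of 97 called differences of members, 73 stayed called in every one of the 13 alternatives that tested the gene, 24 lost the call in at least 1, and 0 changed direction. Of the 52 that were at least 2-fold, 6 lost the call in at least 1 alternative. Calls were lost by leaving out single libraries (7 to 11 calls for each), by library size scaling (6), DESeq2 (4), the use of all 9 libraries (2), RLE size factors (1) and the filter at 1 CPM (1), and the cause was not tested. Of the 53 differences not called, 21 were called in at least 1 alternative, among them those of Acvr1, Chrd and Smad6 between Leydig and Interstitial. Of the same 53, 25 changed sign in at least 1, at sizes of up to 0.21 on the log2 scale outside Nodal, Gdf3, Lefty1 and Lefty2. Of the turned values 1 was called, that of Smad5 in Interstitial against Sertoli with library size scaling.

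For those 4 genes in Leydig against Sertoli, leaving out single libraries gave -0.39 to 1.3 for Nodal, -0.53 to 1.83 for Gdf3, -0.45 to 1.5 for Lefty1 and -0.37 to 1.54 for Lefty2. The negative values came without Leydig replicate B, and for Nodal also without Sertoli replicate B (-0.12). Members highest in Leydig by at least 2-fold numbered 1, but 2 with RLE size factors, 2 with the filter at 1 CPM, 2 with DESeq2 and 0 with library size scaling. Over all genes, 3053 were called higher in Leydig than in Sertoli, and 4714 with all 9 libraries, where replicate C counts as a sample of its own. Higher in Leydig than in Interstitial were 3966, and 2565 to 3740 when single libraries were left out, with the lowest count without Interstitial replicate B.

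The replicate letter as a block lost 0 of the 97 calls and added 8. The differences between replicates A and B correlated across genes by 0.018 between Leydig and Sertoli, 0.248 between Leydig and Interstitial and 0.1 between Sertoli and Interstitial. With only 2 letters, the samples are taken to share no more than a letter, although Ccn2 was higher in replicate B than in A in every population. Counts under the filter, as for Mstn or Gdf7, limit what can be said of low members.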
